A study of Mus musculus with 12 samples.

Results

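Myeloid C-type lectin receptors were followed as 10 genes, Clec4a1, Clec4a2, Clec4a3, Clec4d, Clec4e, Clec4n, Clec5a, Clec7a, Clec10a and Clec12a, taken by name from the 21965 genes of a count table of mouse gingival tissue. Rows were found for 9 of the 10 members, and all 9 were among the 15046 genes abundant enough to be tested. Clec7a, the gene for Dectin-1 (ENSMUSG00000079293, chromosome 6, 129461591 to 129472779, minus strand, GRCm38), had no row, so its expression was not analysed here. RNA-seq had been carried out on 12 libraries, 3 each from C57BL/6 wild-type mice (WT; C57BL/6J in the methods) and Cybb-/- mice (CybbKO), either naive or 8 days after a silk ligature was tied around a maxillary molar. Cybb encodes the catalytic subunit of the phagocyte oxidase Nox2, and the mice are described as a whole-body knockout, which singles out no cell type. All mice were under 12 weeks of age by the labels, and the 3 mice per group were described as matched for age and sex. Total counts ran from 27958819 to 42613423 per library, and a single member had between 28 and 1383 counts in a library. Cybb itself had 4.19 to 5.60 CPM, which are counts scaled to a library of 1000000, in naive WT libraries, 8.41 to 15.2 in ligated WT libraries, 41.6 to 56.3 in naive CybbKO libraries and 51.1 to 63.7 in ligated CybbKO libraries. The targeted transcript was thus higher in the CybbKO libraries, against what the label would lead to, and these are called the libraries labelled CybbKO below. Counts per gene do not show which part of a transcript was read, and the reason for the higher counts was not tested.

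C-type lectin receptors are surface proteins through which neutrophils, monocytes, macrophages and dendritic cells bind sugars and glycolipids of microbes and products of damaged cells. One class signals for activation: Mincle (Clec4e), MCL (Clec4d) and Dectin-2 (Clec4n) pair with the Fc receptor gamma chain, encoded by Fcer1g, and MDL-1 (Clec5a) pairs with DAP12, encoded by Tyrobp. These adaptors carry an activating tyrosine motif that recruits the kinase Syk, and Card9 with Bcl10 and Malt1 passes the signal on to cytokine genes. A second class, including MICL (Clec12a) and DCIR (Clec4a2), carries an inhibitory motif that recruits phosphatases. Clec4a1 and Clec4a3 encode relatives of DCIR, and Clec10a encodes MGL1, a galactose-binding receptor of macrophages and dendritic cells.

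Of these genes, 6 lie in a cluster on chromosome 6 (GRCm38, GENCODE release M21): Clec4a1 at 122921848 to 122934619, Clec4a3 at 122952515 to 122969875, Clec4a2 at 123106428 to 123143999, Clec4n at 123229843 to 123247021, Clec4d at 123262111 to 123275265 and Clec4e at 123281789 to 123289870. Clec4e is on the minus strand and the other 5 are on the plus strand. The genes between them in this cluster that are not members were barely detected, with at most 20 counts in a library for Clec4b1, 9 for Clec4a4 and 2 for Clec4b2. Clec5a (40574894 to 40585821, minus strand) and Clec12a (129342691 to 129365303, plus strand) lie elsewhere on chromosome 6, and Clec10a lies on chromosome 11 (70156197 to 70170834, plus strand). Reads could be confused between relatives for only a pair of members: 3.24% of the 75-base words in Clec4a2 transcripts also occur in Clec4a4 or Clec4b1, and 4.44% of those of Clec10a occur in Mgl2. No such word was shared for the other 8 members. The pseudogene Gm44132 overlaps the span of Clec4a2 on the same strand but shares no such word with it. Its part in the Clec4a2 values was not tested.

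Promoter sequences are shown for 4 members, Clec4e, Clec4d, Clec5a and Clec12a, which moved together from library to library. Clec4n moved as closely with Clec4d and Clec5a but had no promoter entry. The sequences shown are RefSeq sequences on GRCm38.p6, of 250 bases before and 50 bases after a start site, read 5′ to 3′ on the strand of the gene. Capitals mark GAGGAA, or TTCCTC where it is on the other strand, which is the core bound by PU.1, the transcription factor that directs myeloid development. The windows are chr6:123289822-123290121 (minus strand) for Clec4e, chr6:123261857-123262156 (plus strand) for Clec4d, chr6:40585756-40586055 (minus strand) for Clec5a and chr6:129349994-129350293 (plus strand) for Clec12a; the last of these lies inside the annotated gene, at a start site downstream of its first base.
Clec4e: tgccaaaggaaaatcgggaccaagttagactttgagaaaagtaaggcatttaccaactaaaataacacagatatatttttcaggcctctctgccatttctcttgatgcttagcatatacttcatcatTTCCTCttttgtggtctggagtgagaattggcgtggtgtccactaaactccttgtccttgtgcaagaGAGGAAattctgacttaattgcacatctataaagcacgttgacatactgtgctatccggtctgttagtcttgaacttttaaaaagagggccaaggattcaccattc
Clec4d: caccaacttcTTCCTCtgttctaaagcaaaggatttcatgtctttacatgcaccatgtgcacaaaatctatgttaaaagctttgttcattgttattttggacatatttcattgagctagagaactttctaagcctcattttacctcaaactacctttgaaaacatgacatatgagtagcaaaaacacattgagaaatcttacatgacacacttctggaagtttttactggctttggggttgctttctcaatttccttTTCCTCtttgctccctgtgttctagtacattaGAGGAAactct
Clec5a: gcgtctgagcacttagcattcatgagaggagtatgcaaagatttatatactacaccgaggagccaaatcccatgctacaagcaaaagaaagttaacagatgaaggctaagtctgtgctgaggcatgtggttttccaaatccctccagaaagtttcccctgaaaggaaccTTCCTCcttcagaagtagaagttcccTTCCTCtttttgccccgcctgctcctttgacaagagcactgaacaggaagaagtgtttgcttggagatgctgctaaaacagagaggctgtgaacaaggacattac
Clec12a: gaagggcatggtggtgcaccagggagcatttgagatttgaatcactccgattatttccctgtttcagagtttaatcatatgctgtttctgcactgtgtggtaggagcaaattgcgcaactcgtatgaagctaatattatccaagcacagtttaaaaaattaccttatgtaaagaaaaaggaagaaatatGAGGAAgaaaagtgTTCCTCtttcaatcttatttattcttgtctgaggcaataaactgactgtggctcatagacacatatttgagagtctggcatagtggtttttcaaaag

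Promoter entries were found for 8 of the 10 members, Clec7a among them, with 10 windows in all because Clec4a3 and Clec7a had a pair each, and Clec4n and Clec10a had none. GAGGAA occurred on either strand in 7 of the 8, all but Clec4a2, against 31.3% of the 27025 genes with a promoter of the same length. In 6 of the 8 (Clec4e, Clec4d, Clec5a, Clec12a, Clec4a1 and Clec4a3) the core stood within the longer run AAAGAGGAA, which 1.58% of all promoters hold; of the Clec4a3 windows the first holds no GAGGAA on either strand. The longer run was noticed by reading the printed sequences and then counted. In the neighbouring genes Clec4a1 and Clec4a3 it stood in closely alike stretches, so these are not separate instances. With the first transcribed base as position 1, its first base on the printed strand was at position -123 in Clec4e, 8 in Clec4d, -55 in Clec5a, -47 in Clec12a, -217 in Clec4a1 and -50 in Clec4a3. The C/EBP-type word TTNNGNAA was in 5 of the 8 promoters against 44.1% of all, and the AP-1 word TGANTCA was in 2 of the 8 against 8.97%, both searched on both strands. The AAAGAGGAA count includes GAGGAA by construction, and these matches are descriptions of the letters in the windows.

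Ligature placement was first compared with naive tissue in WT mice, to ask which receptor transcripts change in inflamed gingiva. In WT mice, Clec4e and Clec12a rose and the other 7 members did not pass the test (edgeR's quasi-likelihood test, with Benjamini-Hochberg adjustment over all 15046 genes and calls at an adjusted p under 0.05). The share of all genes called higher in this comparison was 2.31%. Among the receptors that pair with the Fc receptor gamma chain, Clec4e had 1.40, 1.11 and 1.31 CPM in the naive WT libraries and 2.56, 6.38 and 12.8 CPM in the ligated ones. All 3 ligated libraries were above all 3 naive ones, and they differed among themselves by a wide margin. The log2 fold change of Clec4e was 2.51 (SE 0.56, adjusted p = 0.0374 by edgeR). Clec4d had 2.13, 1.39 and 2.00 CPM in naive and 3.86, 5.21 and 13.6 CPM in ligated WT libraries. Clec4n had 2.62, 1.90 and 1.75 CPM in naive and 4.16, 6.12 and 11.2 CPM in ligated WT libraries. For both genes the groups did not overlap and the third ligated library stood highest, but the log2 fold changes of 2.04 (SE 0.53, adjusted p = 0.0615 by edgeR) for Clec4d and 1.78 (SE 0.52, adjusted p = 0.0856 by edgeR) for Clec4n did not pass.

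The inhibitory receptor Clec12a had 1.89, 1.74 and 1.64 CPM in naive WT libraries and 2.91, 4.19 and 6.41 CPM in ligated WT libraries. The groups did not overlap, and the log2 fold change was 1.36 (SE 0.32, adjusted p = 0.0466 by edgeR). Clec5a, with 1.74, 1.55 and 1.53 CPM against 2.27, 2.75 and 4.13 CPM, also did not overlap, with a log2 fold change of 0.92 that did not pass (adjusted p = 0.135 by edgeR). For the DCIR genes the first ligated WT library lay within the naive range: Clec4a2 had 2.28, 1.42 and 1.68 CPM in naive and 1.92, 4.21 and 5.58 CPM in ligated WT libraries. Clec4a1 ranged from 2.70 to 5.54 CPM in naive and from 4.70 to 7.40 CPM in ligated WT libraries, and Clec4a3 from 1.24 to 3.41 and from 2.69 to 5.16 CPM. Clec10a was at 1.60 ± 0.76 CPM (SD, n = 3) in naive and 1.69 ± 0.62 CPM in ligated WT tissue, a log2 fold change of 0.08 with a 95% confidence interval from -0.72 to 0.89. Over the 9 members the median log2 fold change was 1.12, against -0.03 over all tested genes, and 5 members had every ligated WT library above every naive one, as did 13.3% of all genes.

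The WT calls were lost in many of the fits with a library left out, while the directions of Clec4e (log2 fold changes of 1.81 to 2.95) and Clec12a (1.01 to 1.63) were kept in each of these 12 fits. Without the second or the third ligated WT library, any 1 of the 3 naive WT libraries, the first ligated or the third naive library labelled CybbKO, 0 members passed. The libraries labelled CybbKO do not enter the means of this contrast. Without the third ligated or the first naive library labelled CybbKO only Clec4e passed, and without the second ligated one 4 members did. DESeq2 called 4 members (Clec4e, Clec4d, Clec4n and Clec12a) and 5.66% of all genes higher in this comparison. An exact two-sided permutation test of the mean CPM of a single member cannot go below p = 0.1 with 3 against 3 libraries.

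**Figure D1:**
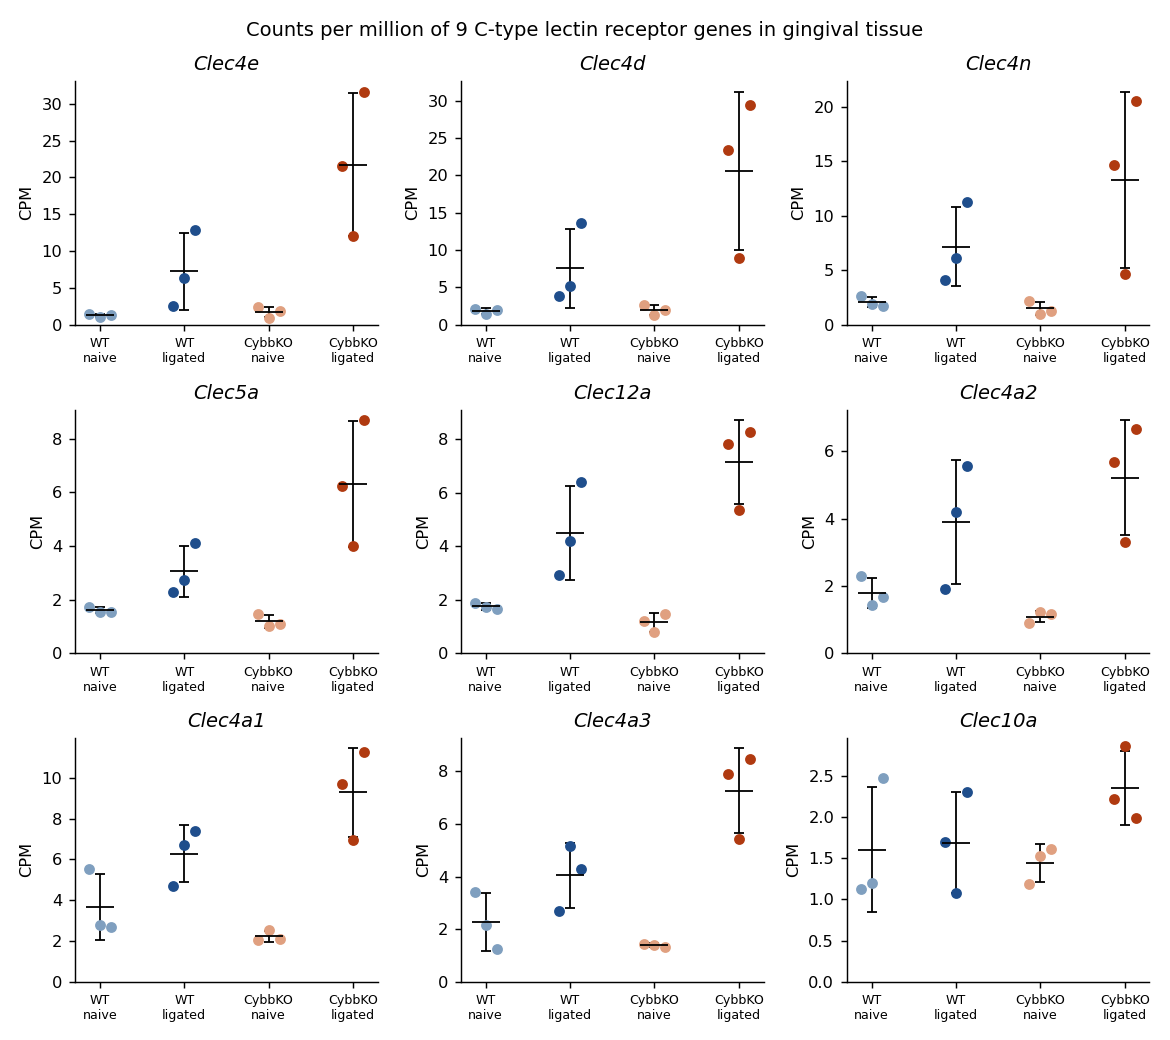
CPM of the 9 analysed receptor genes (y axis, linear, from 0, own scale in each panel) in the 12 libraries by group (x axis); points are libraries, lines the mean and bars the SD of 3 libraries. Ligated libraries labelled CybbKO stood above all naive libraries labelled CybbKO in all 9 panels, and the Clec4e mean reached 21.7 CPM there against 7.26 CPM in ligated WT tissue.

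The same comparison in the libraries labelled CybbKO gave larger values for every member. In these libraries 8 of the 9 members rose after the ligature (edgeR, adjusted p under 0.05), all but Clec10a, where 9.95% of all genes were called higher. DESeq2 called the same 8 members, with 12.0% of all genes called higher, and these 8 were called under all 19 alternatives. Clec4e had 2.37, 0.943 and 1.89 CPM in naive and 21.6, 12.1 and 31.6 CPM in ligated libraries labelled CybbKO, a 12.5-fold difference by the fitted means (log2 fold change 3.65, SE 0.57, adjusted p = 0.00285 by edgeR). The lowest ligated library was thus several times above the highest naive one. Clec4d had 2.71, 1.30 and 1.98 CPM in naive and 23.4, 8.93 and 29.4 CPM in ligated libraries, a 10.3-fold difference (log2 fold change 3.36, SE 0.55, adjusted p = 0.00342 by edgeR). Clec4n had 2.19, 1.03 and 1.31 CPM in naive and 14.6, 4.63 and 20.6 CPM in ligated libraries (log2 fold change 3.14, SE 0.55, adjusted p = 0.00460 by edgeR). For all 3 of these gamma chain-coupled receptors the second ligated library was the lowest of its group and the third was the highest.

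Clec5a, the DAP12-coupled receptor, had 1.47, 1.03 and 1.10 CPM in naive and 6.24, 3.99 and 8.69 CPM in ligated libraries labelled CybbKO, a 5.25-fold difference (log2 fold change 2.39, SE 0.33, adjusted p = 0.00210 by edgeR). Clec12a, of the inhibitory class, had 1.21, 0.777 and 1.46 CPM in naive and 7.83, 5.35 and 8.26 CPM in ligated libraries, a 6.21-fold difference (log2 fold change 2.63, SE 0.34, adjusted p = 0.00199 by edgeR). Receptors of both classes therefore rose, by folds whose confidence intervals overlap. Clec4a2, the inhibitory DCIR, rose from 0.895, 1.22 and 1.16 CPM to 5.69, 3.32 and 6.66 CPM (log2 fold change 2.26, adjusted p = 0.00506 by edgeR). Its relative Clec4a1 rose from 2.05, 2.52 and 2.10 CPM to 9.69, 6.95 and 11.3 CPM (log2 fold change 2.06, adjusted p = 0.00279 by edgeR), and Clec4a3 from 1.44, 1.41 and 1.31 CPM to 7.89, 5.43 and 8.49 CPM (log2 fold change 2.38, adjusted p = 0.00279 by edgeR). The naive values of Clec4a3 were nearly equal in the 3 libraries, and none of the DCIR genes overlapped between the groups. Clec10a had 1.18, 1.53 and 1.62 CPM in naive and 2.22, 2.86 and 1.99 CPM in ligated libraries; the groups did not overlap, but the log2 fold change of 0.71 (95% confidence interval -0.09 to 1.50) did not pass. In all, 9 of 9 members had every ligated library above every naive one, as did 18.5% of all genes, and the median log2 fold change over the members was 2.39 against -0.03 over all tested genes.

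**Figure D2:**
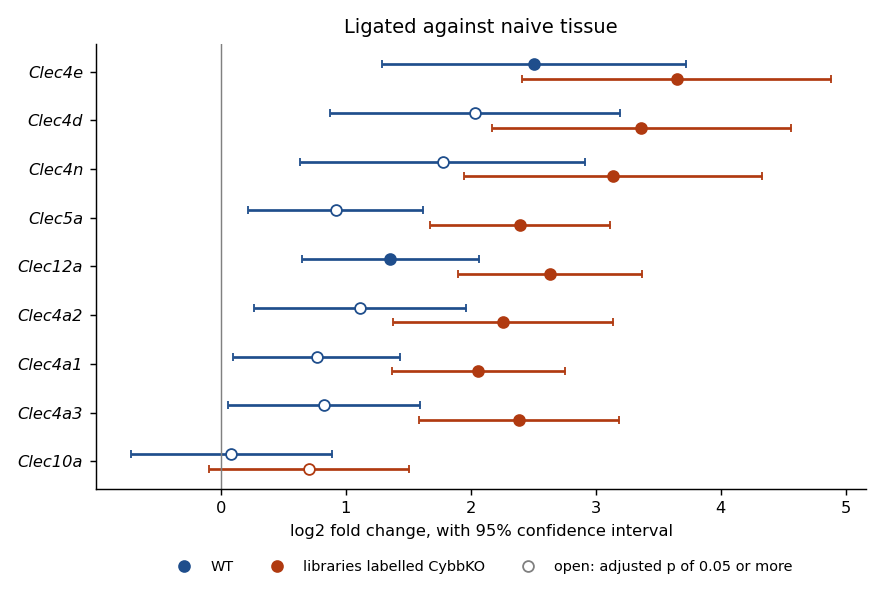
Log2 fold change of ligated against naive tissue (x axis) for each receptor gene (y axis), with 95% confidence intervals, in WT libraries and in libraries labelled CybbKO; filled points passed an adjusted p of 0.05 in edgeR. Clec4e and Clec12a were filled in WT, and all but Clec10a were filled in the libraries labelled CybbKO.

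Next, the genotypes were compared in ligated tissue, to ask whether receptor transcripts differ between inflamed gingiva of mice labelled WT and CybbKO. All 9 fitted differences were above 0, and none of the members passed the test (edgeR, adjusted p = 1.00 for every member); DESeq2 also called 0. Over all genes 0.00665% were called in this contrast, which is Cybb alone. The fitted difference of Clec4e was 1.58 on the log2 scale (95% confidence interval 0.46 to 2.70) and its ranges overlapped, with 2.56 to 12.8 CPM in ligated WT libraries and 12.1 to 31.6 CPM in ligated libraries labelled CybbKO. Clec4d differed by 1.45 (0.35 to 2.54), Clec5a by 1.05 (0.37 to 1.73), Clec4n by 0.89 (-0.19 to 1.97) and Clec4a3 by 0.85 (0.10 to 1.60), all as log2 fold changes with 95% confidence intervals. The unadjusted p was under 0.05 for 4 of the 9 members (Clec4e, Clec4d, Clec5a and Clec4a3), or 44.4%, and for 3.34% of all genes. It was also under 0.05 for 6 of 6 leukocyte genes (median log2 difference 0.86), 8 of 12 neutrophil markers (median 1.33) and 5 of 12 monocyte and macrophage markers (median 0.54). Clec4a3 was the only member whose groups did not overlap, as for 5.0% of all genes in this direction. The smallest differences were those of Clec10a with 0.48 and Clec4a2 with 0.42. The median over the members was 0.85 against 0.01 over all genes, of which 53.4% had a positive value.

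In these ligated groups the members shared their order of libraries. Among ligated WT libraries the third was the highest for 8 of the 9 members and the first was the lowest for 8. Among ligated libraries labelled CybbKO the third was the highest for 8 members and the second was the lowest for 8, with Clec10a in the opposite order. The summed CPM of the members was 26.8, 41.8 and 67.8 in the ligated WT libraries and 99.2, 53.6 and 126.9 in the ligated libraries labelled CybbKO, so that the second of the latter lay below the highest WT library. The summed CPM of 8 epithelial genes ran in the opposite order, with 79308, 62836 and 49198 in the ligated WT libraries and 56071, 86631 and 53363 in the ligated libraries labelled CybbKO. That of 6 fibroblast genes was 5001, 5916 and 8036 in the former and 10396, 3867 and 9404 in the latter, lowest where the members were lowest. The part of this tissue makeup in the receptor values was not tested. Without the third ligated WT library the fitted genotype difference of Clec4e was 2.28 and that of Clec4d was 2.18, and without the first ligated WT library that of Clec4e was 1.17. With single libraries left out that of Clec4n ran from 0.43 (without the third ligated library labelled CybbKO) to 1.37 (without the third ligated WT library) and that of Clec4a2 from 0.08 (without the first ligated WT library) to 0.77 (without the third). The smallest adjusted p of any member over the libraries left out was 0.337 (Clec5a, edgeR).

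In naive tissue the genotypes were compared to ask whether the receptors differ before inflammation. The fitted differences were below 0 for 7 of the 9 members and 0 members passed (edgeR, adjusted p = 1.00; DESeq2 also 0), with 0.00665% of all genes called, again Cybb alone. Clec4a1 had 5.54, 2.78 and 2.70 CPM in WT and 2.05, 2.52 and 2.10 CPM in libraries labelled CybbKO, a log2 difference of -0.72 (95% confidence interval -1.41 to -0.04), and it was the only member with an unadjusted p under 0.05, as were 2.03% of all genes. The groups did not overlap for 4 members, Clec4a1, Clec4a2, Clec5a and Clec12a, each lower in the libraries labelled CybbKO, as were 3.03% of all genes. The differences of Clec4a2 and Clec4a3 were -0.72 and -0.71, that of Clec12a was -0.61, and those of Clec4e and Clec4d were 0.44 and 0.12 with intervals that span 0. The first naive WT library was the highest of its group for 8 of the 9 members, and without it the difference of Clec4a1 was -0.30 and that of Clec4a3 was -0.29. The median over the members was -0.47 against 0.00 over all genes. Values above 0 were also few among fibroblast genes (0 of 6, median -0.62), dendritic cell markers (1 of 10, -0.43), monocyte and macrophage markers (2 of 12, -0.27) and the other C-type lectins tested (4 of 21, -0.26). They were more frequent among neutrophil markers (8 of 12, median 0.59) and leukocyte genes (3 of 6, 0.04). The same held for T and NK cell genes (4 of 6, 0.45) and B and plasma cell genes (4 of 4, 0.65).

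The difference between the ligature responses of the genotypes was then tested itself. It was positive for all 9 members, from 0.62 for Clec10a to 1.56 for Clec4a3 on the log2 scale, and 0 members passed (edgeR, adjusted p = 1.00; DESeq2 also 0), as did 0% of all genes. The 95% confidence intervals lay above 0 for Clec5a (1.47, 0.48 to 2.46), Clec4a3 (1.56, 0.47 to 2.65), Clec4a1 (1.29, 0.35 to 2.24) and Clec12a (1.28, 0.28 to 2.27), before any adjustment. These 4 had an unadjusted p under 0.05, as had 2.27% of all genes. The difference was also positive for 12 of 12 monocyte and macrophage markers (median 0.86, 5 with an unadjusted p under 0.05), 12 of 12 neutrophil markers (0.85), 6 of 6 leukocyte genes (0.78) and 6 of 6 fibroblast genes (0.98), against a median of 1.29 for the members. For Clec4e (1.14, -0.51 to 2.79), Clec4d (1.33, -0.27 to 2.92) and Clec4n (1.36, -0.23 to 2.95) the intervals included both no difference and a difference several-fold in size. With single libraries left out the difference stayed positive for all 9 members but moved in size, from 0.72 (without the first ligated WT library) to 1.84 (without the third) for Clec4e, from 0.98 (without the third ligated library labelled CybbKO) to 2.07 (without the third ligated WT library) for Clec4d, and from 0.17 (without the third naive WT library) to 0.91 (without the third ligated WT library) for Clec10a. The contrasts share their libraries: a low naive value and a high ligated value in the libraries labelled CybbKO both enter this difference.

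**Figure D3:**
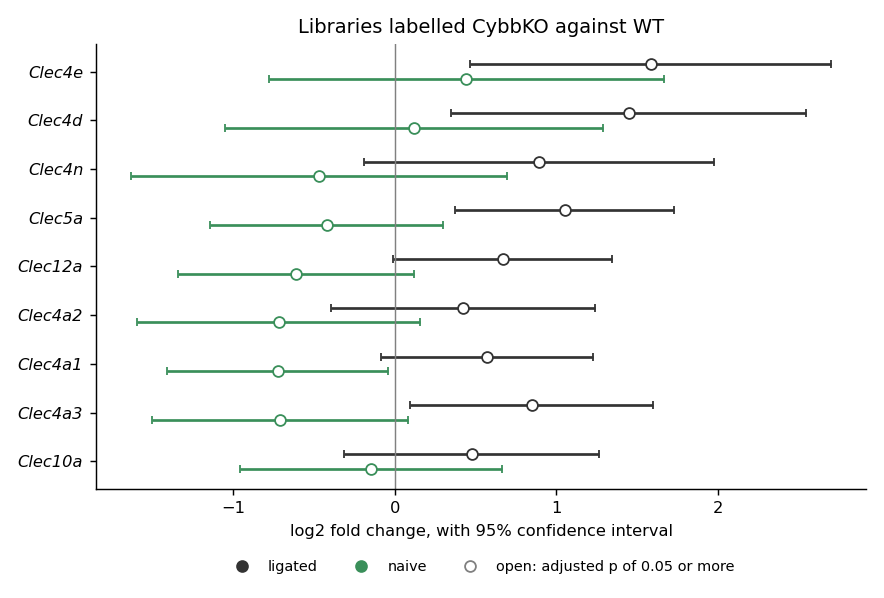
Log2 fold change of libraries labelled CybbKO against WT (x axis) for each receptor gene (y axis), with 95% confidence intervals, in ligated and in naive tissue; open points did not pass an adjusted p of 0.05, which holds for all of them. The ligated values ran from 0.42 (Clec4a2) to 1.58 (Clec4e), and the naive values from -0.72 (Clec4a1) to 0.44 (Clec4e).

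Levels were compared between genes after division by the length of the annotated exons, as CPM per kb. In naive WT tissue Clec4a1 had the highest mean level with 2.36 CPM per kb (1.73 to 3.56 over the 3 libraries), followed by Clec4a3 with 1.71, Clec4n with 1.47 and Clec4d with 1.15. The range of Clec4a3, 0.934 to 2.57, covered the means of its neighbours in this order. Clec4e was the lowest of the 9 there with 0.256 CPM per kb (0.223 to 0.282). In ligated libraries labelled CybbKO the order was headed by Clec4d with 12.9 (5.59 to 18.4) and Clec4n with 9.36 (3.26 to 14.5), whose ranges overlap each other and those of Clec4a1 with 5.97 (4.46 to 7.24), Clec4a3 with 5.48 (4.09 to 6.40) and Clec4e with 4.38 (2.44 to 6.36). Below these, Clec4a2 had 1.79, Clec5a 1.64, Clec12a 1.29 and Clec10a 0.813 CPM per kb. Clec4e thus moved from the ninth place in naive to the fifth in ligated WT tissue, and from the seventh (0.349 CPM per kb) to the fifth in libraries labelled CybbKO, while Clec10a was the lowest of the 9 in both ligated groups. The range of Clec4e in ligated WT tissue, 0.516 to 2.59, covered the means of Clec4a2, Clec5a, Clec12a and Clec10a. Its range in naive libraries labelled CybbKO, 0.190 to 0.477, covered those of Clec4a2, Clec5a and Clec12a.

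**Figure D4:**
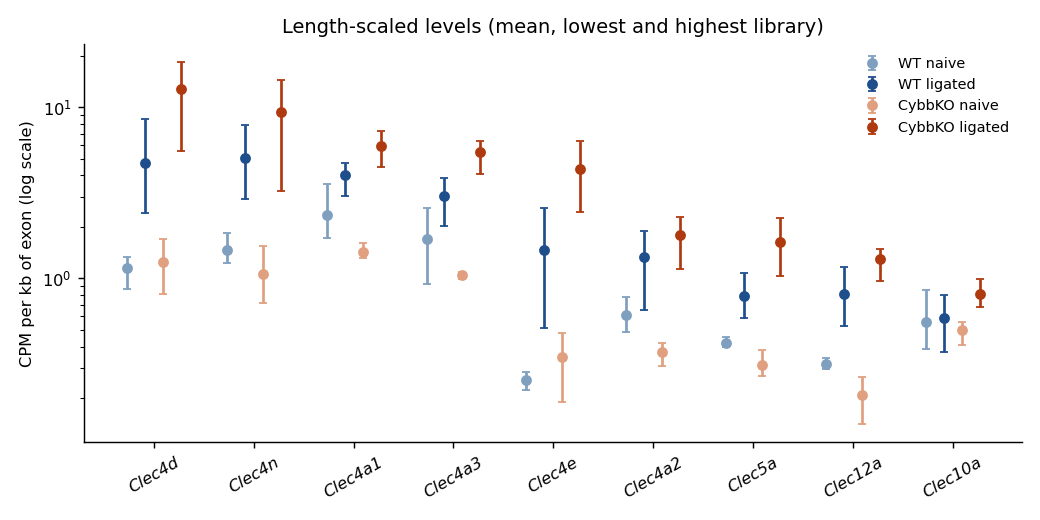
CPM per kb of exon (y axis, log scale) of the 9 receptor genes (x axis) in the 4 groups; points are means and bars run from the lowest to the highest of 3 libraries. Clec4d reached 12.9 CPM per kb in ligated libraries labelled CybbKO, and Clec4e had 0.349 CPM per kb in naive and 4.38 in ligated libraries labelled CybbKO.

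The deviations of the members from their group means varied together in most pairs. Over the 36 pairs of members the median Pearson correlation of these deviations (log2 CPM, 12 libraries) was 0.65, the highest was 0.98 for Clec4n with Clec5a, and Clec4e with Clec4d had 0.93. Pairs with Clec10a stood apart, between -0.73 (Clec4a3) and 0.05 (Clec4d). These are descriptions, since the values of a pair share each library with its depth and cell makeup. Outside the members, the 10 genes whose log2 CPM over the 12 libraries was most like the mean standardised member pattern were Lcp1, Csf2rb, Mefv, Fcer1g, Tacc1, Ctss, Tmem173, Csf2rb2, Csf1r and Lyn, with r from 0.980 to 0.986; this likeness includes the difference between ligated and naive tissue.

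The partners of the receptors were taken from lists of 14 adaptor, kinase and Card9 pathway genes and 3 phosphatases. In WT mice 1 of the 14 passed, the Src-family kinase Lyn, with 10.8, 8.79 and 9.55 CPM in naive and 15.5, 21.6 and 27.9 CPM in ligated libraries (log2 fold change 1.16, adjusted p = 0.0276 by edgeR). In the libraries labelled CybbKO 4 of the 14 rose and none fell: Fcer1g, Tyrobp, Lyn and Vav1. Fcer1g, the gamma chain, had 4.85, 3.97 and 5.12 CPM in naive and 21.1, 18.5 and 23 CPM in ligated libraries labelled CybbKO (log2 fold change 2.17, SE 0.31, adjusted p = 0.0023 by edgeR). Its 3 ligated libraries were close to each other, unlike those of Clec4e and Clec4d. Tyrobp, the DAP12 gene, had 8.92, 4.63 and 10.3 CPM in naive and 29.8, 20.1 and 29.3 CPM in ligated libraries (log2 fold change 1.73). The exchange factor Vav1 rose by a log2 fold change of 1.67, and Lyn by 1.66. Hcst, the gene for the adaptor DAP10, was at 0.909 CPM or less in every library. The shared downstream genes did not pass: Syk was at 36.7 ± 1.2 CPM (SD, n = 3) in naive and 39.5 ± 1.3 CPM in ligated libraries labelled CybbKO (log2 fold change 0.11, 95% confidence interval -0.12 to 0.33), and Card9 at 1.66 ± 0.50 and 2.69 ± 0.59 CPM (log2 fold change 0.70, adjusted p = 0.134 by edgeR). Bcl10, Malt1, Src, Plcg2, Prkcd, Vav2 and Vav3 also did not pass in either genotype. These values are totals over all cells of the tissue, and levels within the cells that carry the receptors were not measured. Of the phosphatases, Inpp5d, which encodes SHIP1, rose in the libraries labelled CybbKO (log2 fold change 1.49, adjusted p = 0.00207 by edgeR), and Ptpn6 and Ptpn11 did not pass. The median log2 fold change of the 14 was 0.39 in the libraries labelled CybbKO and 0.12 in WT.

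**Figure D5:**
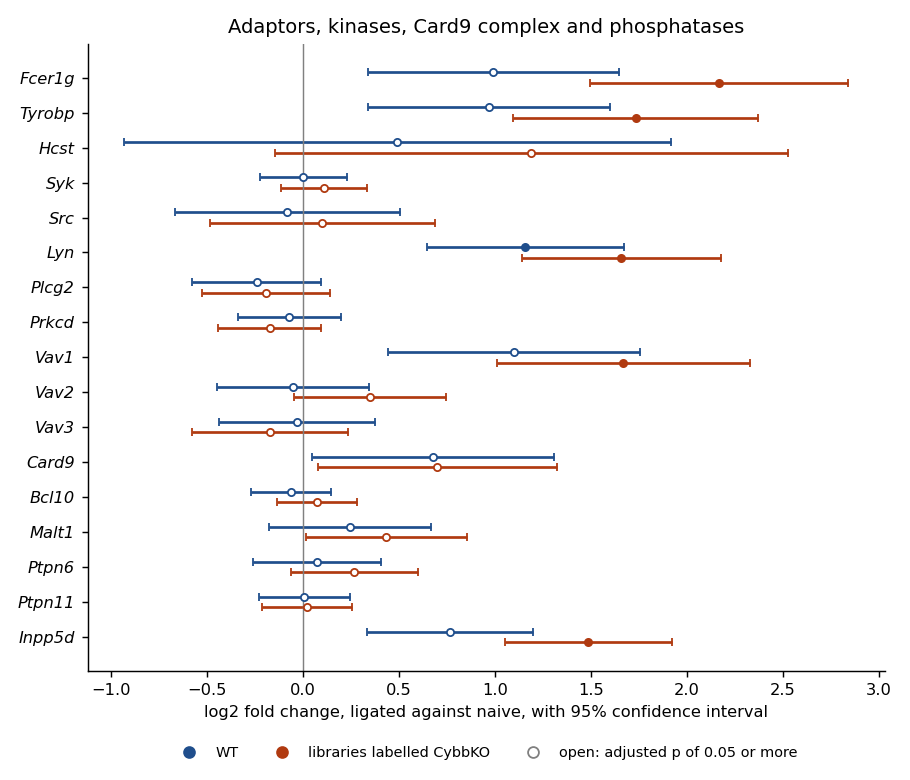
Log2 fold change of ligated against naive tissue (x axis), with 95% confidence intervals, for 14 adaptor, kinase and Card9 pathway genes and 3 phosphatases (y axis) in WT libraries and in libraries labelled CybbKO; filled points passed an adjusted p of 0.05 in edgeR. Fcer1g, Tyrobp, Lyn, Vav1 and Inpp5d were filled in the libraries labelled CybbKO, and Lyn alone was filled in WT.

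Of 12 genes that this pathway is known to induce, for cytokines, chemokines, the inflammasome and cyclooxygenase-2 (Ptgs2), none passed in WT and 5 rose in the libraries labelled CybbKO. Il1b, the gene for interleukin-1β, had 34.5, 9.82 and 23.9 CPM in naive and 162, 99.5 and 186 CPM in ligated libraries labelled CybbKO (log2 fold change 2.71, adjusted p = 0.0073 by edgeR). Il6, Ptgs2, Nlrp3 and Cxcl2 had log2 fold changes of 4.59, 2.94, 2.37 and 2.32. Il6 was near the limit of detection in naive tissue, at 0.115 CPM or less in the libraries labelled CybbKO, and its second ligated library had 0.401 CPM against 3.42 and 4.06 in the others. Many other signals induce these genes.

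Among 29 other C-type lectin receptor genes, 21 were tested and they did not move in 1 direction. In WT mice 2 rose after the ligature, Olr1 (the oxidised LDL receptor LOX-1) and Cd93, and Cd209b fell. In the libraries labelled CybbKO 5 rose, Cd93, Olr1, Clec1a, Mrc1 and Mrc2, and 3 fell, Cd207, Cd209b and Cd209f. Of all 15046 tested genes, 348 rose and 133 fell in WT, and 1497 and 457 in the libraries labelled CybbKO. Some of these lectins had low counts. Olr1 had 0, 2 and 3 counts in naive WT libraries, and Cd209b had 3, 4 and 2 in ligated ones. In ligated libraries labelled CybbKO, Cd209b had 3, 2 and 1 counts and Cd209f had 3, 4 and 3. Cd207, which encodes langerin of Langerhans cells, fell from 6.61, 9.96 and 7.60 CPM to 2.40, 1.93 and 1.67 CPM (log2 fold change -2.01, adjusted p = 0.0074 by edgeR). Mrc1, the macrophage mannose receptor, rose from 7.01, 8.07 and 5.49 CPM to 23, 11.1 and 25.2 CPM (log2 fold change 1.53, adjusted p = 0.0058 by edgeR). The median log2 fold change of the 21 was 0.46 in these libraries, against 2.39 for the 9 members, a difference that was not tested.

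Markers of neutrophils, monocytes and macrophages mostly rose with the receptors in the libraries labelled CybbKO, and so did those of some other cell types. The summed CPM of 6 genes of all leukocytes was 47.3 to 60.4 in naive WT, 71.2 to 117 in ligated WT, 42.1 to 63.4 in naive and 134 to 194 in ligated libraries labelled CybbKO. The sum over 12 neutrophil markers was 385 to 859, 1355 to 3798, 829 to 940 and 2522 to 11695 in the same order, most of it from S100a8 and S100a9. The other 10 neutrophil markers summed to 59.2 to 73.1, 63.3 to 196, 33.3 to 70.5 and 142 to 283 CPM, a split made after the values were seen, so that the WT groups overlapped. The sum over 12 monocyte and macrophage markers was 264 to 306, 341 to 497, 247 to 254 and 423 to 637. In the libraries labelled CybbKO 10 of the 12 neutrophil and 10 of the 12 monocyte and macrophage markers rose, and in WT 1 and 3 of them. The summed CPM of 10 dendritic cell markers overlapped between naive and ligated WT tissue (112 to 225 and 145 to 187) and was 102 to 135 and 170 to 184 in naive and ligated libraries labelled CybbKO. Of these 10 markers 3 rose and 1 fell in the libraries labelled CybbKO, and none passed in WT. Of 6 fibroblast genes 5 rose in the libraries labelled CybbKO and 2 in WT, with mean sums of 1615 and 7889 CPM in naive and ligated libraries labelled CybbKO and 2336 and 6318 CPM in WT. Of 6 endothelial genes 5 and 3 rose. The mean sum of 8 epithelial genes was 83343 CPM in naive and 65355 CPM in ligated libraries labelled CybbKO, and 74744 and 63780 CPM in WT. Of 4 tested B and plasma cell genes 2 fell in the libraries labelled CybbKO (mean sums 4.03 and 2.07 CPM), the mean sum of the T and NK cell genes was 6.87 CPM in naive and 14.7 CPM in ligated ones, and 0 mast cell, basophil and eosinophil genes passed there. None of the pan-leukocyte, neutrophil, monocyte and macrophage and dendritic cell lists had a gene at 0 in every library of a group, and Ly6g, a defining neutrophil marker, was at 1.77 CPM or less. Ptprc, the gene for the leukocyte antigen CD45, had a log2 fold change of 2.04 in the libraries labelled CybbKO (adjusted p = 0.0044 by edgeR), the highest of the 6 leukocyte genes, whose median was 1.41 against 2.39 for the members. The median there was 2.62 for the neutrophil markers and 2.45 for the fibroblast genes. It was 1.61 for monocyte and macrophage markers, 1.02 for endothelial genes and 0.74 for dendritic cell markers. The differences between these medians were not tested. These are bulk samples, in which more cells of a type and more RNA per cell cannot be told apart, and the part of cell number and tissue makeup in the receptor changes was not tested. The tissue was gingival by its labels, and the epithelial genes, which do not single out gingiva, summed to at least 49198 CPM in every library. The summed CPM of 6 skeletal muscle genes ranged from 367 to 2098 with no order by group. Salivary gland genes summed to 1.46 CPM in the first and 424 CPM in the third naive WT library, the lowest and highest of the 12, so gland RNA was uneven between libraries.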

How the data were processed

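Gingival RNA was sequenced from 12 mice, 1 library each, and grouped by its labels. Raw, unnormalised read counts per Ensembl gene were deposited by the authors. The paper's methods name STAR alignment to GRCm38 and featureCounts by strand, the submitters' processing notes name FastQC 0.10.1 and HTSeq 0.10.0, and which counter made the table was not settled. The methods and the labels differ on age, a legend of the paper and the labels on the side of the ligated molar, and the methods name both paired and single reads. Symbols came from GENCODE M21 (26 identifiers unmatched), promoters from RefSeq.

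Counts were fitted in R 4.3.3 with edgeR 4.0.16 (TMM, filterByExpr, quasi-likelihood F test, 1 mean per group over 12 libraries), with Benjamini-Hochberg adjustment over 15046 genes and calls under 0.05. CPM are counts scaled to 1000000 with TMM. The biological coefficient of variation was 0.240. The procedure was tested on simulated data. Alternatives were DESeq2 1.42.0 (named by the methods), DESeq2 size factors, library size only, no filter, at least 10 counts in every library, the 6 libraries compared, the replicate block and each library left out. Replicates are separate mice by the series text, and none were duplicates. The named genes are all members, the signalling and phosphatase lists, called genes of the other lists, Cybb and the 10 genes most alike; Ptprc and Ly6g were named as markers of their lists. A further signalling gene is not reported here and is not counted in its list. Members and lists were chosen with earlier results of these data known.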

Additional observations from a re-analysis of the deposited data

How the results depend on the processing

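In the libraries labelled CybbKO 8 members were called in ligated against naive tissue under all 19 alternatives, and 0 members were called between the genotypes under the same 19 or for the difference of responses under the 18 that apply to it. In WT the count of 2 moved to 4 with DESeq2 and to 0 with only the libraries of the contrast (fewer samples), and from 0 to 4 with each library left out; Clec4e was called in 11 and Clec12a in 8 of the 19 alternatives, and the cause was not tested. Across single members in WT, 19 values lost and 5 gained a call with no change of direction. Direction changed with libraries left out only in values that were not called: Clec10a in WT (-0.21 to 0.54, with -0.2054, -0.1164 and -0.0852 without the third ligated, first naive and second naive WT library), Clec10a between naive genotypes (-0.35 to 0.31, with 0.3074 without the third naive WT library) and Clec4d there (-0.17 to 0.35, with -0.0503 and -0.1674 without the second naive WT and the first naive library labelled CybbKO). Same-numbered libraries did not deviate together (correlations -0.228 to 0.277, 2 of 18 above 0.1), so the numbers were not treated as pairs; with the replicate block 2 members were called in WT, Clec4d (log2 fold change 1.94) and Clec4e, Clec12a (1.31) was not, and 8 and 0 were called elsewhere as without it. With 3 libraries a group, none of the genotype differences passed after adjustment, which does not show that they are absent.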
